A study of Mus musculus with 32 samples.

Results

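Pou5f1, Sox2, Sall4, Lin28a and 6 formative or primed genes (Fgf5, Otx2, Pou3f1, Lin28b, Zic2 and Sall2) were followed through 32 RNA-seq libraries made from E14, a line of mouse embryonic stem cells. These 10 genes were chosen by name, from the core network that stem cells share before and after they leave the naive state and from factors that mark the formative and primed states, out of 17440 genes listed across the series. These members, and the gene lists used below, were chosen with earlier results of these data known. Values were present for 9 of the 10. Fgf5 was not analysed here, and Pou3f1 was not analysed in the tables of CTCF degradation and of CTCF overexpression, so 8 genes have values in every table. All 9 passed the filter on low values (a table mean of at least 10) in each table that lists them.

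The study asked how transcript levels respond to loss of CTCF, the DNA-binding protein that anchors chromatin loops, and of RAD21, a subunit of the cohesin ring that forms them. AID in a genotype names the auxin-inducible degron, a fusion that makes a protein break down once auxin is added, and every library came from CTCF AID or RAD21 AID cells. Exposure lasted 0, 12 or 24 h, with 500 uM IAA (indole-3-acetic acid, an auxin) for CTCF AID and 1 uM 5-Ph-IAA for RAD21 AID. A further CTCF AID pair of groups, labelled as a serum condition, had 0 or 12 h of IAA. CTCF AID cells with a short hairpin RNA against Chd4, the remodelling ATPase of the NuRD complex, were set against a control hairpin, with no IAA named in their labels. The last table held CTCF AID cells with an overexpressed control, wild type CTCF or mutated CTCF, each sampled without IAA and after 12 h of it. The mutation is not given in the labels. The protocol for cell growth gives a serum-free medium with LIF, PD0325901 and CHIR99021 for all samples, including those labelled serum. Every one of the 16 groups had 2 libraries, so each mean ± SD below has n = 2. No label says that the libraries of a group came from separate cultures, so the p-values measure only the spread between these samples, which may be technical.

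In 4 libraries of that table the treatment label contradicts the title. Both libraries whose titles give mutated CTCF and no IAA have a treatment label of 12 h IAA, and both whose titles give wild-type CTCF plus IAA have a label of no treatment. Groups follow the titles here, and every result that rests on these 4 libraries is named as such.

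Pou5f1 (the gene of OCT4) and Sox2 encode transcription factors that bind DNA together and hold stem cells in the pluripotent state, and Sall4 encodes a zinc-finger partner of both. Lin28a and Lin28b encode RNA-binding proteins that block maturation of the let-7 microRNAs, which repress growth and stemness genes such as Hmga2. When naive cells enter the formative state, as they do before they take up lineage signals, Otx2 and Pou3f1 (the gene of OCT6) are among the first factors to rise and direct OCT4 to new enhancers. Fgf5 is a secreted growth factor that marks the primed epiblast. Zic2 is a zinc-finger factor of enhancers, and Sall2 is a family relative of Sall4.

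The DNA just upstream of 3 members is shown because these genes had the largest rise (Lin28a) and the largest fall (Sall2) of the CTCF time course and the difference in IAA response between overexpression groups (Sox2). Sequences are from RefSeq on GRCm38.p6, 5′ to 3′ on the gene's strand, up to 250 bases before the 5′-most start and shortened where that stretch enters an exon of the gene in the GENCODE M21 annotation. Capitals mark a match to CATTGT, a core of the SOX motif. The Lin28a window is chr4:134018842-134019066 on the minus strand, the Sall2 window chr14:52328763-52328920 on the minus strand and the Sox2 window chr3:34649745-34649994 on the plus strand.
Lin28a: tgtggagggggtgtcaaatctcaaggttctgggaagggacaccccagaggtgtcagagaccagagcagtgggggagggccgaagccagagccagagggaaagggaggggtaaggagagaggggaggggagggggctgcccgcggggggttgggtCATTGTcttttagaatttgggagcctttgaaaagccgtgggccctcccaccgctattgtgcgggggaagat
Sall2: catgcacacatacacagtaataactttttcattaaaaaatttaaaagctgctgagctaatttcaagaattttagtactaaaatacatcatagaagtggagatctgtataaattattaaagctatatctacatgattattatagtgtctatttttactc
Sox2: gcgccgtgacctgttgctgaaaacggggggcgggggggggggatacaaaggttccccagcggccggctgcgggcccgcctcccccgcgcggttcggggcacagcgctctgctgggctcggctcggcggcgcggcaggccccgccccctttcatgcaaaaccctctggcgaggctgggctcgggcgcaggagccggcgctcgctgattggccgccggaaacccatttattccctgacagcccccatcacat

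Promoter sequence was matched for 7 of the 10 members (Pou5f1, Sox2, Lin28a, Fgf5, Otx2, Lin28b and Sall2), and Sall4, Pou3f1 and Zic2 had none. Both strands of the full 250-base windows were searched for CATTGT, for the OCT octamer ATGCAAAT and for a core of the CTCF motif. CATTGT in Lin28a was the 1 match among the 7, and 10.69% of 32851 promoter windows hold that hexamer. The octamer is present in 1.6% of those windows and the CTCF core in 2.07%. Base composition differed: G and C made up 61.2% of the full 250-base window of Lin28a, 72.0% of that of Sox2 and 28.0% of that of Sall2. For Lin28a and Sall2 the sequence printed above is shorter than this. A match describes letters in this window and is not a measured binding site.

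Library totals of the normalised counts lay between 15364584 and 19642332. Chd4 mRNA checked the hairpin labels, with 9923 and 9526 normalised counts in the control libraries and 3379 and 3729 with the Chd4 hairpin. The degron acts on protein, so Ctcf and Rad21 mRNA check nothing about degradation. Ctcf mRNA was 4134 and 4332 in the overexpression controls without IAA and between 9275 and 11758 in the 8 libraries titled as overexpressing CTCF. All 7 stem-cell markers (Nanog, Zfp42, Esrrb, Dppa5a, Tdgf1, Dppa4 and Utf1) were listed in each table with no library at 0, and their summed level lay between 52759 and 99967. Lists for neural, primitive endoderm, mesoderm, trophoblast and fibroblast cells were present in part, with no listed marker at 0 in any group. A summed level follows its most abundant markers, so single markers of a list can go the other way. These are bulk libraries, in which fewer cells of a type and less RNA per cell cannot be told apart.

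The 5 groups with neither degradation, Chd4 hairpin nor added CTCF are called unperturbed here. In them Pou5f1, Sox2 and Sall4 were abundant and close across the 5 tables. Lin28a, Otx2, Pou3f1 and Lin28b differed between tables by more than any treatment moved them. Zic2 and Sall2 were low but varied less between tables, with group means of 292 to 589 and 134 to 322 normalised counts. Levels of different genes are compared per kilobase of exon, as a percentage of Pou5f1 in the same library. The tables were normalised separately, so levels set across tables are descriptions and were not tested.

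Pou5f1 (chr17:35506018-35510772, plus strand, GRCm38) was the most abundant member in every group and lay between 8500.3 and 16924 normalised counts, a 1.99-fold range over 32 libraries. Sox2 (chr3:34650405-34652461, plus strand) came next. It stood at 84.8% and 85.0% of Pou5f1 per kilobase with the control hairpin and between 37.2% and 49.0% in the other 4 unperturbed groups. Sall4 (chr2:168748332-168767943, minus strand) followed Sox2 in 4 of the 5 unperturbed groups, from 5.63% of Pou5f1 per kilobase in RAD21 AID cells to 12.6% in the serum libraries. The order Pou5f1, Sox2, Sall4 held in those 4 groups without overlap of their libraries. In the serum condition Lin28a stood between Sox2 and Sall4.

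Lin28a (chr4:134003330-134018841, minus strand) had the widest range of the set. Its unperturbed libraries held 62.3 and 49.5 normalised counts in RAD21 AID cells, 173 and 159 in CTCF AID cells, 1260.0 and 1362 in the overexpression controls, 2106 and 2039.9 with the control hairpin and 6315 and 6470.3 in serum. None of these pairs overlapped another. Over all 32 libraries the highest value was 351 times the lowest. Per kilobase this placed Lin28a at 0.17% to 0.211% of Pou5f1 in RAD21 AID cells and at 25.4% to 26.3% in serum.

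The formative and primed genes were low, and their order changed with the table. Zic2 (chr14:122475435-122479852, plus strand) was the most abundant of them per kilobase in each unperturbed group and the least variable, between 197 and 663 normalised counts over all libraries. Otx2 (chr14:48657677-48673819, minus strand) was at 29.0 and 25.3 in CTCF AID cells at 0 h, at 182 and 176 in the overexpression controls, at 261 and 224 with the control hairpin, at 348 and 384 in serum and at 486 and 463 in RAD21 AID cells. Per kilobase it overlapped Lin28b at the bottom of the order in CTCF AID cells, and it stood just under Zic2 in RAD21 AID cells. Pou3f1 (chr4:124656807-124660655, plus strand) was at 8.01 and 15.7 in RAD21 AID cells and reached 240.1 and 248 in serum.

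Lin28b (chr10:45376620-45486395, minus strand) was also highest in serum, at 908 and 938 normalised counts, against 51.1 to 166 in the other unperturbed libraries. Sall2 (chr14:52311172-52328762, minus strand) lay between 134 and 327 in the unperturbed libraries. Serum libraries therefore held the highest unperturbed levels of Lin28a, Pou3f1, Lin28b and Sall2, and RAD21 AID libraries the highest of Otx2. Strand use in counting is not given in the sources used here. Exons of Pou5f1, Sall4, Lin28a, Otx2 and Pou3f1 overlap 154 to 526 bases of an antisense gene each, and Otx2 also shares 168 bases with a gene on its own strand, so reads in those stretches are uncertain. Fgf5 lies at chr5:98254184-98277030 on the plus strand.

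**Figure D1:**
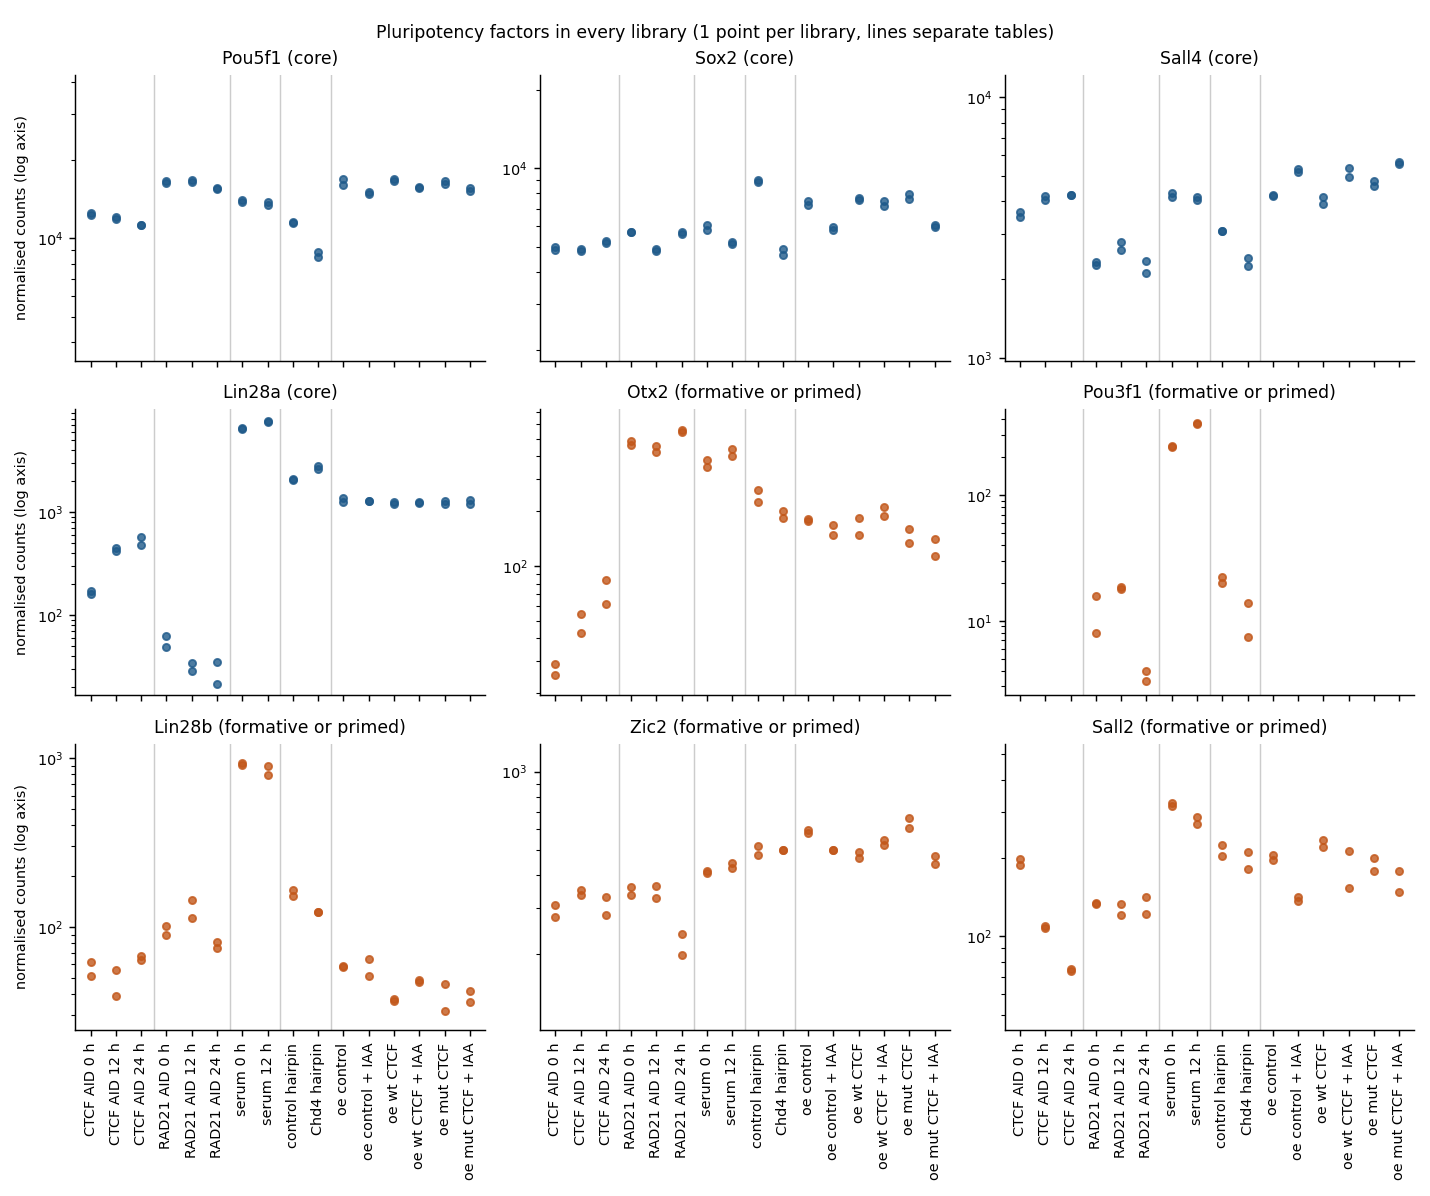
Normalised counts (log axis) of the 9 measured members in each library, by group, with vertical lines between the separately normalised tables and 1 point per library. Pou5f1 stays between 8500.3 and 16924, whereas Lin28a runs from 21.7 with RAD21 degradation to 7641 in serum.

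**Figure D2:**
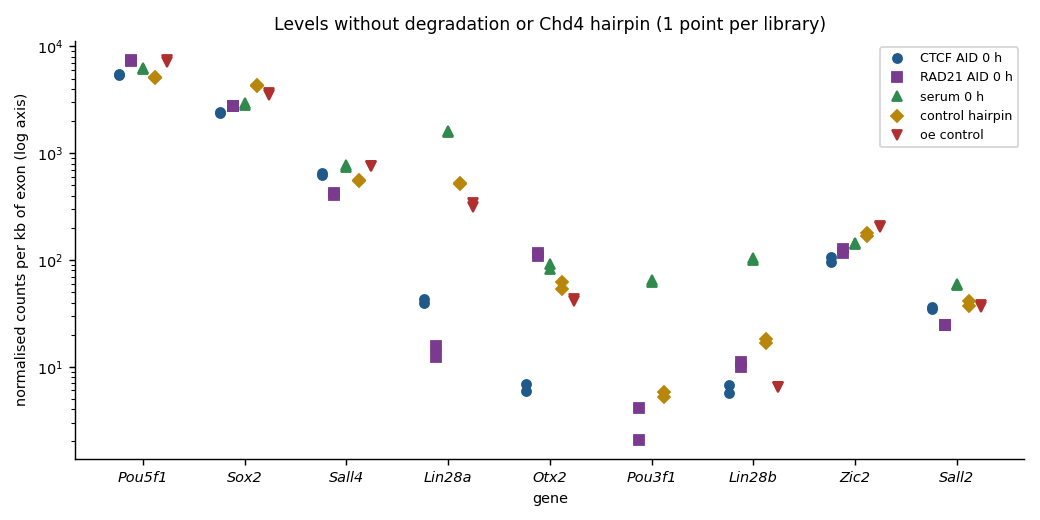
Normalised counts per kilobase of exon (log axis) for each measured member in the 5 groups without degradation or Chd4 hairpin, 1 point per library. Pou5f1 is highest in all 5 groups, and the 5 groups separate most for Lin28a.

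To ask how these factors respond to loss of CTCF, CTCF AID cells were compared at 0, 12 and 24 h of IAA. Lin28a and Otx2 rose, Sall2 fell, and Pou5f1 and Sox2 differed from 0 h by at most 0.14 on the log2 scale. Of the 8 members tested, 3 passed limma's adjusted p of 0.05 at 12 h, where Sall4 and Lin28a rose and Sall2 fell, and 5 passed at 24 h, where Otx2 also rose and Pou5f1 also fell. The same test called 17.8% and 22.5% of all genes. The median log2 difference of the core members was 0.09 at 12 h and 0.17 at 24 h, that of the formative or primed members was -0.01 and 0.14, and the medians of all genes were 0.001 and 0.002. Both times share the 0 h libraries.

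Lin28a stood at 173 and 159 normalised counts at 0 h, 453 and 420 at 12 h, and 576 and 484 at 24 h. Every treated library lay above both untreated ones. Its log2 difference on log2(value + 1) was 1.39 (SE 0.12, limma adjusted p 0.000652) at 12 h, a 2.62-fold rise, and 1.67 (SE 0.12, adjusted p 0.00024) at 24 h, a 3.17-fold rise. Even so, at 24 h Lin28a reached 2.42% to 2.87% of Pou5f1 per kilobase. Both calls held with each library left out in turn, with adjusted p up to 0.011 and 0.00328.

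Otx2, a homeobox factor of the formative state, held 29.0 and 25.3 at 0 h, 54.2 and 42.8 at 12 h, and 83.3 and 62.0 at 24 h. The 3 groups did not overlap. At 12 h the log2 difference was 0.81 and was not called (limma adjusted p 0.0879, and 0.0403 after quantile normalisation), and at 24 h Otx2 rose by 1.37 (SE 0.27, limma adjusted p 0.0128). Without the second 0 h library or the first 24 h library the 24 h call was lost, at adjusted p 0.0686 and 0.0643.

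Sall2 went the other way, from 188 and 199 at 0 h to 107 and 109.6 at 12 h and 75.3 and 73.7 at 24 h. The 3 groups did not overlap either. It fell by 0.83 on the log2 scale at 12 h (SE 0.15, limma adjusted p 0.0122) and by 1.37 at 24 h (SE 0.15, adjusted p 0.00134), which is 1.78-fold and 2.58-fold lower. The 12 h call was lost without any 1 of the 4 libraries compared (adjusted p up to 0.0834), and the 24 h call held in each case.

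Sall4 rose slightly, from 3467 and 3640 to 4184 and 4023 at 12 h and 4223 and 4221 at 24 h, with log2 differences of 0.21 (SE 0.04, limma adjusted p 0.021) and 0.25 (SE 0.04, adjusted p 0.00873). The 12 h call was lost without any 1 of the libraries compared and after quantile normalisation, and the 24 h call without the first 0 h library (adjusted p 0.0618). Pou5f1 was 12237 and 12545 at 0 h and 11293 and 11268 at 24 h. It fell by 0.14 at 24 h (SE 0.03, limma adjusted p 0.0213), a call that was lost without either 0 h library or the second 24 h library. Sox2, at 5000 and 4862 at 0 h and 5273 and 5171 at 24 h, was not called (log2 difference 0.08, SE 0.04, limma adjusted p 0.168).

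Lin28b, the paralog of Lin28a, was 61.8 and 51.1 at 0 h and 67.4 and 63.8 at 24 h, or 0.22 in log2 at 24 h (SE 0.26, limma adjusted p 0.589). Zic2 was 308 and 276 at 0 h, 352 and 335 at 12 h and 282 and 330 at 24 h, and was called at neither time. Between 12 and 24 h limma called 0 of 8 members and 0.146% of all genes. At an unadjusted p under 0.05 there were 3 members, and the share of all genes at that threshold is not given here.

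Genes around the members moved in both directions. In the LIN28 and let-7 list, limma called 7 of 15 genes at 12 h and 5 at 24 h, all higher. They included the let-7 target Hmga2, which rose from 205 and 191 to 312 and 274 at 12 h and 358 and 394 at 24 h (log2 differences 0.56 and 0.92, limma adjusted p 0.0226 and 0.00278), and Igf2bp1, an mRNA-binding protein and let-7 target (0.38 and 0.31). The 12 h call of Hmga2 was lost without any 1 of the libraries compared. Among 23 other formative and primed genes, 6 rose and 4 fell at 12 h. Trh, the thyrotropin-releasing hormone gene, went from 81.4 and 64.5 to 459 and 418 (log2 difference 2.58, SE 0.14, limma adjusted p 0.000123), and the Wnt effector Lef1 from 44.8 and 47.2 to 122 and 142, reaching 214 and 212 at 24 h (log2 difference from 0 h 2.19). Dnmt3a, a de novo DNA methyltransferase that marks the formative state, fell by 0.96 (SE 0.15, limma adjusted p 0.00628), from 905 and 1076 to 474 and 543.

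Naive factors also split, with 6 of 15 higher and 3 lower at 12 h. Dppa3, a maternal factor of the naive state, rose from 158 and 148 to 415 and 434 (log2 difference 1.47) while Nanog fell from 15808 and 15637 to 11846 and 11924 (-0.40, SE 0.03, limma adjusted p 0.000304). Of 11 family paralogs tested, 3 rose and 1 fell at 12 h. The Sall2 and Sall4 relatives Sall3 and Sall1 rose, by 0.78 and 0.28 on the log2 scale, and Fgf4, a paralog of Fgf5, fell by 0.30. The summed stem-cell markers were 63522 to 64551 at 0 h, 55273 to 55369 at 12 h and 52759 to 54056 at 24 h. The 5 primitive endoderm markers listed (without Foxa2, Gata6 and Sox17) summed to 3499 to 3673, 4105 to 4108 and 5015 to 5288 at the 3 times. The 4 mesoderm markers listed (without Hand1, Mesp1 and Tbx6) summed to 201 to 220 at 0 h and 323 to 338 at 24 h. For the 3 fibroblast markers listed (without Col1a2, Col3a1 and Postn) the sums were 241 to 253 and 94.1 to 103, and for the 5 trophoblast markers (without Elf5 and Tpbpa) 1582 to 1628 and 1354 to 1360.5. The 5 neural markers measured summed to 2012 to 2088, 2543 to 2668 and 2054 to 2356 at the 3 times. Not every marker followed its sum. At 12 h limma called 1 neural marker higher and 0 lower, with a median log2 difference of -0.231. Of the stem-cell markers 1 was higher and 2 lower at 12 h, and 1 higher and 4 lower at 24 h. The part of these shifts in the members' differences was not tested.

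**Figure D3:**
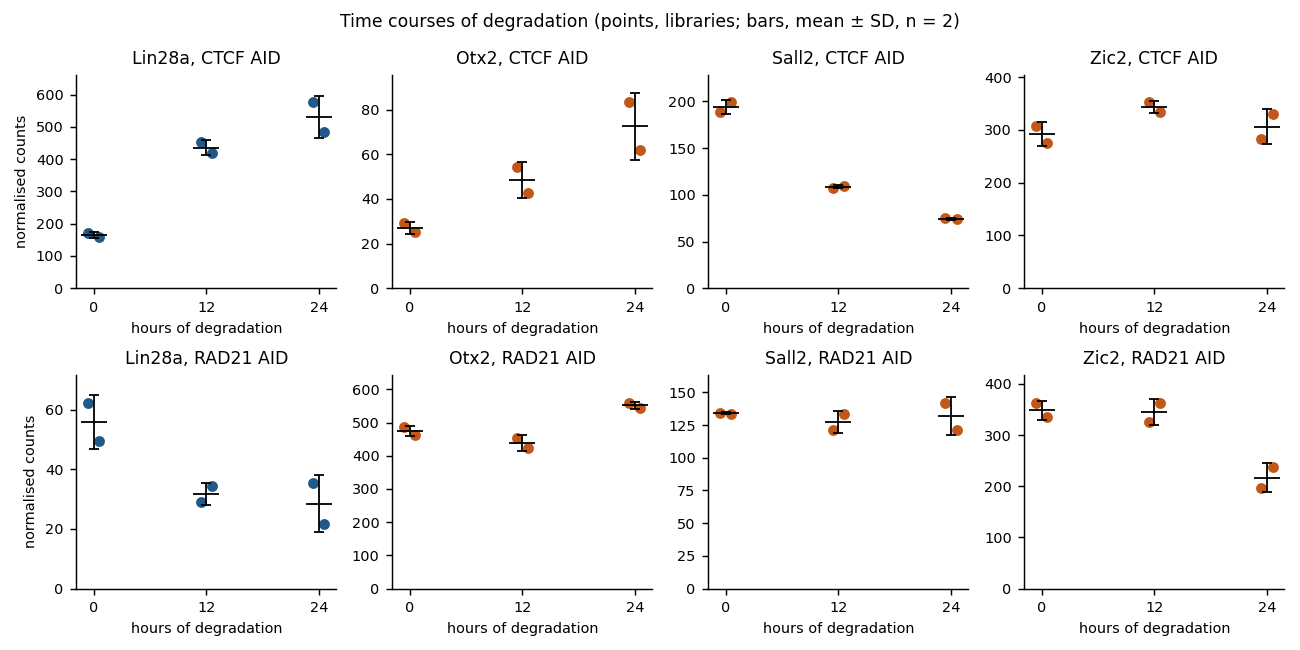
Normalised counts (linear axis from 0) of Lin28a, Otx2, Sall2 and Zic2 against hours of degradation, in CTCF AID cells (upper row) and RAD21 AID cells (lower row), with points for libraries and bars for mean ± SD (n = 2). Lin28a, Otx2 and Sall2 move in the upper row, and Zic2 drops at 24 h in the lower row.

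The same question was asked of cohesin with RAD21 degradation. Against 0 h limma called Sox2 at 12 h, and Pou5f1 and Zic2 at 24 h, all lower. These counts of 1 and 2 out of 9 tested stand beside 13.0% and 13.7% of all genes called. At 24 h 5 of 9 members had an unadjusted p under 0.05, and the share of all genes at that threshold is not given here. Between 12 and 24 h 6 of 9 members differed (2 higher, 4 lower), against 15.9% of all genes. Both the 5 and the 6 include Pou3f1, which passed the filter only through its earlier libraries and is given below as a description. The 2 comparisons with 0 h share their control libraries.

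Sox2 dipped and returned. It was 5667 and 5693 normalised counts at 0 h, 4903 and 4830 at 12 h and 5673 and 5604 at 24 h. The 12 h libraries lay below all 4 others, with a fall of 0.22 on the log2 scale from 0 h (SE 0.03, limma adjusted p 0.00527) and a rise of 0.21 from 12 to 24 h (SE 0.03, adjusted p 0.00477). Both calls held with each library left out in turn (adjusted p up to 0.0405 and 0.0369).

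Zic2 changed late. Its libraries held 362 and 335 at 0 h, 326 and 363 at 12 h and 197 and 237 at 24 h, so that both 24 h values lay below all others. The fall was 0.69 on the log2 scale against 0 h (SE 0.13, limma adjusted p 0.0188), or 1.61-fold, and 0.67 against 12 h (adjusted p 0.0169). Each of these calls was lost without either library of the earlier group or the first 24 h library (adjusted p up to 0.0897 and 0.097). Zic5, a family member of Zic2, fell by 0.75 against 0 h (SE 0.17, limma adjusted p 0.033), and that call was lost without any 1 of the libraries compared.

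Pou3f1 was low throughout this time course, at 8.01 and 15.7 at 0 h, 17.8 and 18.6 at 12 h, and 3.30 and 3.95 at 24 h. The 24 h libraries were the lowest. The log2 difference from 12 to 24 h was -2.06 (SE 0.52, limma adjusted p 0.039), and the call was lost without either 24 h library and with the replicate block (adjusted p 0.0572). The 24 h mean of 3.63 is under the filter of 10 and Pou3f1 entered the test through its earlier libraries (12 h mean 18.2), so this call is a description of those values. Against 0 h the log2 difference of -1.41 was not called (adjusted p 0.122).

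Lin28a, which rose in the CTCF time course, was 62.3 and 49.5 at 0 h, 29.1 and 34.2 at 12 h and 35.3 and 21.7 at 24 h. Treated libraries lay below untreated ones, but limma called neither difference (-0.80, SE 0.33, adjusted p 0.156 and -0.98, SE 0.33, adjusted p 0.0958). Otx2 held 486 and 463, 455 and 422, and 559.8 and 544 at the 3 times. Its rise of 0.33 between 12 and 24 h (SE 0.09, limma adjusted p 0.0443) was lost without any 1 of the libraries compared and after quantile normalisation, with the replicate block and with only the compared groups in the fit. Sall2, the member that fell most in the CTCF time course, stayed between 121 and 142 in all 6 libraries. Its differences from 0 h were -0.08 and -0.03 (SE 0.16, limma adjusted p 0.777 and 0.922). The CTCF and RAD21 time courses used different auxins and doses and were normalised separately, and the difference between their responses was not tested.

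Sall4 held 2339 and 2266, 2588 and 2794, and 2347 and 2111 at the 3 times. Its log2 difference was -0.27 from 12 to 24 h (SE 0.07, limma adjusted p 0.033), a call lost without either 12 h library or the second 24 h library, with the replicate block (adjusted p 0.0545) and with only the compared groups in the fit (0.0533). Pou5f1 moved by 1.06-fold, from 16638 and 16340 at 0 h to 15474 and 15598 at 24 h (log2 difference -0.09, SE 0.02, limma adjusted p 0.0318). That call was lost without any 1 of the libraries compared, and the one between 12 and 24 h (-0.10, adjusted p 0.0191) shrank to -0.03 after quantile normalisation. Lin28b was 89.4 and 101, 145 and 112, and 75.1 and 81.2, with no call (log2 difference -0.70 from 12 to 24 h, limma adjusted p 0.0534).

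Of 23 other formative and primed genes, limma called 5 at 12 h, all higher, and 5 at 24 h, of which 4 were higher. Utf1, a chromatin-bound pluripotency factor, went from 709 and 711 to 1032 and 1020 at 12 h (log2 difference 0.53, limma adjusted p 0.0043), and Grhl2, an epithelial enhancer factor, from 123 and 91.7 to 280 and 244 at 24 h (1.29, adjusted p 0.00601). In the LIN28 and let-7 list, 2 of 15 genes rose at 12 h. At 24 h 2 rose and 3 fell, among them Ccnd1, the cyclin D1 gene (log2 difference -0.55), and Dgcr8, the microRNA processing factor (-0.45). Of 15 naive factors, 7 were lower and 1 higher at 12 h, 6 were lower and 3 higher at 24 h, and 1 was lower and 4 higher between 12 and 24 h. The 7 primitive endoderm markers listed (without Foxa2) summed to 5609 to 5928 at 0 h and 7482 to 7565 at 24 h, and the stem-cell markers to 75632 to 76924 and 75398 to 76109. At the same times the 4 trophoblast markers (without Cdx2, Elf5 and Tpbpa) gave 1203 to 1262 and 977 to 1046, the 3 mesoderm markers (without Hand1, Mesp1, T and Tbx6) 372 to 378 and 286 to 292, the 3 fibroblast markers (without Col1a2, Col3a1 and Postn) 167 to 168 and 172 to 216, and the 6 neural markers measured 2569.9 to 2589 and 2349 to 2445. Not every marker followed its sum. At 24 h limma called 1 trophoblast marker higher and 2 lower, and 1 stem-cell marker higher and 1 lower. Their part in the members' differences was not tested.

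In the serum condition, which holds the highest Lin28a, Pou3f1 and Lin28b levels of the series, 12 h of IAA was compared with 0 h. Pou3f1 and Lin28a rose and Sox2 fell. These were the 3 of 9 members that limma called, where 17.0% of all genes were called.

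Pou3f1, the POU factor of the formative state, went from 240.1 and 248 normalised counts to 369 and 372. The groups did not overlap, and the rise of 0.60 on the log2 scale (SE 0.09, limma adjusted p 0.00502) was 1.52-fold. Leaving out either 12 h library brought the adjusted p to 0.0504 and 0.0525, just past the threshold. Lin28a rose from 6315 and 6470.3 to 7419.9 and 7641, by 0.24 in log2 (SE 0.03, limma adjusted p 0.00149), a call that held with each library left out. Its rise here was 1.18-fold, beside 2.62-fold in the serum-free CTCF AID table from far lower levels, and these rises were not tested against each other.

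Sox2 fell from 5776 and 6060.2 to 5206 and 5124, by 0.20 on the log2 scale (SE 0.03, limma adjusted p 0.00638), and lost its call without the second 12 h library (adjusted p 0.0637). The other members were not called. Otx2 was 348 and 384 without and 401 and 439 with IAA (log2 difference 0.20, SE 0.09, limma adjusted p 0.195), and Sall2 was 327 and 317 without and 270.1 and 288 with it (-0.21, SE 0.09, adjusted p 0.182). Pou5f1, at 14009.7 and 13846 and then 13402 and 13769, moved by less than any called member (-0.04, SE 0.02, limma adjusted p 0.27). Lin28b, Zic2 and Sall4 differed by -0.13, 0.08 and -0.04.

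All 11 of 15 naive factors called in serum were lower, among them Prdm14, a naive-state repressor of FGF signalling (log2 difference -0.76, limma adjusted p 0.0208), and the nuclear receptor Nr0b1, from 1232 and 1228 to 790 and 698 (-0.73, adjusted p 0.000736). Of 25 other formative and primed genes, 9 rose and 5 fell. Sfrp2, a secreted Wnt modulator, rose from 464 and 502 to 953 and 988 (log2 difference 1.01, limma adjusted p 0.000178). In the LIN28 and let-7 list 4 of 15 rose and 3 fell, with Hmga2 higher (0.42) and Tut4, the uridylyl transferase that LIN28A recruits to pre-let-7, lower (-0.39). The stem-cell marker sum was 63163 to 63326 at 0 h and 54874 to 55606 at 12 h, and the 4 mesoderm markers listed (without Gsc, Mesp1 and Tbx6) gave 83.2 to 106 and 191 to 198. The 6 primitive endoderm markers (without Foxa2 and Sox17) gave 2829 to 2846 and 3089 to 3183, the 5 trophoblast markers (without Elf5 and Tpbpa) 1385 to 1442 and 1510.4 to 1575, the 5 fibroblast markers (without Postn) 657 to 679 and 723 to 742, and the 6 neural markers measured 2849 to 2891 and 2763 to 2809. Not every marker followed its sum. With IAA limma called 2 primitive endoderm markers higher and 1 lower, and 1 stem-cell marker higher and 4 lower. Their part in the members' differences was not tested.

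Depletion of Chd4 gave the largest falls of Sox2 and Pou5f1 in the series. All 4 core members changed and none of the 5 formative or primed members was called. That is 4 of 9 called (1 higher, 3 lower), in a comparison where limma called 67.4% of all genes. At an unadjusted p under 0.05 it was 7 of 9 members, and the share of all genes at that threshold is not given here. The formative or primed group had 3 of 5 at an unadjusted p under 0.05, all lower. Median log2 differences were -0.40 for the core members, -0.33 for the formative or primed ones and 0.006 for all genes.

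Sox2 stood at 8861 and 8980.5 normalised counts with the control hairpin and 4893 and 4637 with the Chd4 hairpin. The groups were far apart, with a fall of 1.87-fold (log2 difference -0.91, SE 0.04, limma adjusted p 9.34e-06). The level with the Chd4 hairpin was near that of CTCF AID cells at 0 h in their own table (5000 and 4862), whereas the control level was the highest Sox2 of the series. Pou5f1 went from 11416 and 11548 to 8862 and 8500.3 (log2 difference -0.40, SE 0.04, limma adjusted p 0.000167, and -0.25 after quantile normalisation), and Sall4 from 3079.7 and 3063 to 2248 and 2421 (-0.40, SE 0.05, adjusted p 0.000672). Sox2 per kilobase dropped from 84.8% to 85.0% of Pou5f1 with the control hairpin to 59.6% to 60.3% with the Chd4 hairpin.

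Lin28a was the core member that rose, from 2106 and 2039.9 to 2591 and 2781 (log2 difference 0.37, SE 0.06, limma adjusted p 0.00106). All 4 core calls held with each library left out in turn. The formative or primed members gave smaller or noisier differences. Otx2 went from 261 and 224 to 183 and 201 (log2 difference -0.33, SE 0.14, limma adjusted p 0.0664), Lin28b from 166 and 152 to 122 and 122 (-0.38, SE 0.15, adjusted p 0.0565) and Pou3f1 from 20.1 and 22.4 to 13.8 and 7.42 (-0.996, SE 0.41, adjusted p 0.0668).

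Each of these 3 passed the threshold in at least 1 alternative: Otx2 without the second control library (adjusted p 0.0297), Lin28b after trimmed-mean scaling (0.0477) and quantile normalisation (0.0245), and Pou3f1 after quantile normalisation (log2 difference -2.46, limma adjusted p 0.00879) and without the first Chd4 library (0.0479). Zic2 was 520 and 479 with the control and 500 and 501 with the Chd4 hairpin, or 0.01 in log2 (SE 0.09, limma adjusted p 0.958). Sall2 was 225 and 203, and 211 and 181 (-0.13, SE 0.14, adjusted p 0.43).

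Many genes of the wider lists were called, in a comparison where limma called 67.4% of all genes. Whether these lists were called more often than other genes was not tested. Of the 12 family paralogs tested 9 were called, all lower, including Sall3 (log2 difference -2.49), Sall1 (-1.20) and Fgf4 (-0.86). Among 15 naive factors 9 fell and 2 rose, with the naive factor Klf2 at -1.25, and among 25 other formative and primed genes 9 rose and 11 fell, with Grhl2 at 3.39 and Nodal, a TGF-beta family ligand of the epiblast, at 1.33. In the LIN28 and let-7 list 10 of 15 fell and 3 rose. Hmga2 went from 1338 and 1362 to 405 and 438 (log2 difference -1.68, SE 0.07, limma adjusted p 6.47e-06) while Lin28a rose. The 7 stem-cell markers summed to 98615 to 99967 with the control and 59549 to 61400 with the Chd4 hairpin. The 5 fibroblast markers listed (without Col3a1) summed to 280 to 363 and 613 to 704, and the 4 mesoderm markers (without Hand1, Mesp1 and Tbx6) to 240.1 to 318 and 458 to 492. The 7 primitive endoderm markers (without Foxa2) gave 4326 to 4539 and 5179 to 5233, the 4 trophoblast markers (without Cdx2, Elf5 and Tpbpa) 1937 to 1989.6 and 2314 to 2467, and the 6 neural markers measured 3233 to 3298 and 4162 to 4232. Single markers did not all follow these sums. By limma 4 primitive endoderm markers were higher and 3 lower, 2 neural markers higher and 2 lower, and 2 stem-cell markers higher and 4 lower. Their part in the members' falls was not tested.

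The overexpression table asked whether added CTCF changes the response to IAA. The responses with wild-type and with mutated CTCF and their differences from the control response rest on the libraries of conflicting labels. So do mutated against wild-type CTCF after IAA and mutated CTCF against control without IAA. The response in control cells and wild-type CTCF against control without IAA compare none of these libraries. Their p-values still draw on a spread estimated from all groups of the table. With groups taken from the treatment label, all 5 calls in control cells were lost (limma adjusted p 0.15 to 0.401). In control cells IAA lowered Sox2, Pou5f1, Sall2 and Zic2 and raised Sall4. The fall of Sox2 was also present with mutated CTCF and was smaller in the libraries titled as wild-type CTCF with IAA. By limma 5 of 8 members were called in control cells, 4 of them lower, beside 25.3% of all genes. With wild-type CTCF 2 were called, 1 in each direction (21.4% of all genes), and with mutated CTCF 4 were, 3 of them lower (16.2%).

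Sox2 was 7507 and 7200.3 normalised counts in control cells without IAA and 5948 and 5781 with it, a fall of 0.33 on the log2 scale (SE 0.03, limma adjusted p 6.88e-05). With mutated CTCF it was 7636 and 7965 without and 5967 and 6075 with IAA, a fall of 0.37 (SE 0.03, adjusted p 6.98e-05). With wild-type CTCF it was 7556 and 7658 without and 7496 and 7156 with IAA, or -0.05 in log2 (SE 0.03, adjusted p 0.294). The 4 treated libraries of control and mutated CTCF lay at or below 6075 and all 8 others at or above 7156.

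The difference between the wild-type CTCF and control responses of Sox2 was itself called, at 0.27 (SE 0.05, limma adjusted p 0.0216), where 1.41% of all genes were called and no other member was. It was lost after quantile normalisation, with only the compared groups in the fit, and without any 1 of 5 of the 8 libraries. After IAA, Sox2 with mutated CTCF differed from Sox2 with wild-type CTCF by -0.28 (SE 0.03, limma adjusted p 0.00287), the 1 member call of that comparison (2.25% of all genes). By limma's adjusted p the responses with mutated CTCF and in the control did not differ for any member (1.64% of all genes called). At an unadjusted p under 0.05 there were also 0 members, with no share of all genes given. For Sox2 the difference was -0.05 (SE 0.05). These results cannot be given without the libraries of conflicting labels, since both treated wild-type CTCF libraries are among them. In the same libraries Sall4 was 5363 and 4944, against 5182 to 5647 in the other libraries titled with IAA and at most 4795 in those titled without. Ctcf mRNA was 11630.5 and 11077 in them, against 9275 and 9481 in the libraries titled as wild-type CTCF without IAA. Sall4 is itself a member under study, and whether the title or the label is right was not tested.

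Sall4 rose in all 3 backgrounds. It went from 4193 and 4206 to 5322 and 5182 in control cells, from 4137 and 3900.0 to 5363 and 4944 with wild-type CTCF and from 4795 and 4573 to 5647 and 5575 with mutated CTCF. Treated and untreated libraries did not overlap within any background, and the log2 differences were 0.32, 0.36 and 0.26 (SE 0.04 each, limma adjusted p 0.000393, 0.000321 and 0.00256). These calls held with each library left out.

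Pou5f1 fell by 0.14, 0.10 and 0.09 (SE 0.03 each, limma adjusted p 0.0035, 0.0298 and 0.0484), from 16892 and 16047 to 15051 and 14831 in control cells. The calls with wild-type and mutated CTCF were lost without any 1 of the libraries compared. Zic2 was 582 and 595 without and 500.0 and 499.6 with IAA in control cells, and 663 and 605 without and 443 and 474 with IAA beside mutated CTCF. It fell by 0.24 (SE 0.08, limma adjusted p 0.044) and by 0.47 (SE 0.08, adjusted p 0.00204). The first of these calls was lost without any 1 of the libraries compared, and the second held. Beside wild-type CTCF Zic2 was 465 and 493 without and 548 and 522 with IAA (log2 difference 0.16, limma adjusted p 0.165).

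Sall2 was 205 and 196 in control cells and 137 and 142 after IAA. It fell by 0.52 (SE 0.16, limma adjusted p 0.0386), again lost without any 1 of the libraries compared. With wild-type CTCF it was 235 and 220, and 154 and 214 (-0.33, adjusted p 0.183), and with mutated CTCF 199.9 and 178, and 179 and 148 (-0.21, adjusted p 0.422). Lin28a, which rose with IAA in the CTCF time course and in serum, lay between 1196 and 1362 in all 12 libraries of this table. Its IAA differences were -0.03, 0.01 and 0.02 (SE 0.06, limma adjusted p 0.722, 0.901 and 0.901).

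Otx2 in control cells was 182 and 176 without and 147 and 167 with IAA (-0.19, SE 0.16, limma adjusted p 0.44). After IAA, Otx2 was 141 and 113 beside mutated CTCF against 189 and 209.9 beside wild-type CTCF, a difference of -0.66 (SE 0.16, adjusted p 0.0742). Without IAA, limma called 0 of 8 members with wild-type CTCF and 0 of 8 with mutated CTCF against the control (0.897% and 5.55% of all genes called). At an unadjusted p under 0.05 there were 2 and 3 members, with no share of all genes given. Lin28b had the largest of these differences, at 59.1 and 58.0 in the control, 36.6 and 37.6 with wild-type CTCF (-0.64, SE 0.24, limma adjusted p 0.303) and 31.9 and 45.7 with mutated CTCF (-0.60, SE 0.24, adjusted p 0.186).

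Around the members, 7 of 23 other formative and primed genes fell in control cells and 5 rose. Utf1 went from 498 and 495 to 79.4 and 76.1 (log2 difference -2.66, SE 0.13, limma adjusted p 3.02e-07), and Fst, the follistatin gene, from 217 and 252 to 64.1 and 51.7 (-2.00). In the LIN28 and let-7 list 5 of 15 rose and 3 fell in control cells, with Igf2bp1 from 8414 and 8694 to 14494 and 15599.7 (log2 difference 0.81, limma adjusted p 1.82e-07). That list had 5 higher and 2 lower with wild-type CTCF and 3 and 3 with mutated CTCF. The stem-cell markers summed to 78960 to 79027 in control cells and 71561 to 72971 after IAA. For the same groups the 5 neural markers measured gave 2284 to 2375 and 3660.5 to 3776, the 4 mesoderm markers (without Hand1, Mesp1 and Tbx6) 276 to 308 and 381 to 395, and the 5 trophoblast markers (without Elf5 and Tpbpa) 1579 to 1676 and 1929.7 to 1984. Single markers did not all follow these sums. By limma 2 neural markers were higher and 0 lower, with a median log2 difference of -0.098. In the mesoderm and trophoblast lists 1 was higher and 1 lower, with medians of 0.617 and -0.201. The 7 primitive endoderm markers (without Sox17) gave 5399.5 to 6254 and 5146 to 5649, and the 3 fibroblast markers (without Col1a2, Col3a1 and Postn) 89.5 to 129.9 and 112 to 116. Their part in the members' differences was not tested.

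**Figure D4:**
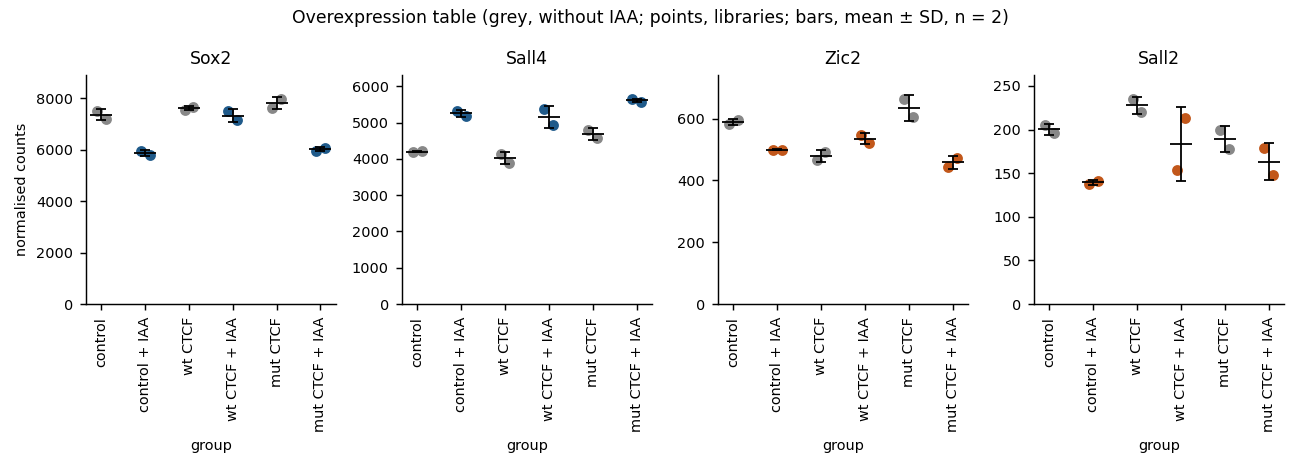
Normalised counts (linear axis from 0) of Sox2, Sall4, Zic2 and Sall2 in the 6 groups of the overexpression table, with grey points for libraries without IAA, coloured points for libraries with IAA and bars for mean ± SD (n = 2). Sox2 is at 5781 to 6075 with IAA in control and mutated CTCF and at 7156 and 7496 in the libraries titled as wild-type CTCF with IAA.

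Side by side, the members did not respond as 1 block. Over 16 comparisons limma called Sox2 in 8 (2 higher, 6 lower), Pou5f1 in 7 (all lower), Sall4 in 7 (5 higher, 2 lower), Lin28a in 4 (all higher), Zic2 in 4 and Sall2 in 3 (all lower), Otx2 in 2 (both higher) and Pou3f1 in 2 of 5 (1 higher, 1 lower). Lin28b was called in 0 of 16, with 4 at an unadjusted p under 0.05. Several comparisons share control libraries, so these counts are not independent. The 7 Pou5f1 calls were small, from -0.09 to -0.40 on the log2 scale, whereas the 2 largest called rises were those of Lin28a after CTCF degradation.

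Responses to 12 h of IAA in CTCF AID cells can be set beside each other across 3 separately normalised tables. Lin28a differed by 1.39, 0.24 and -0.03 in the serum-free time course, in serum and in the overexpression control, and its untreated level was lowest in the first of these. Sox2 differed by -0.02, -0.20 and -0.33 and Sall2 by -0.83, -0.21 and -0.52. Sall2 was lower with IAA in each table, with its serum difference not called. The differences between tables were not tested.

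**Figure D5:**
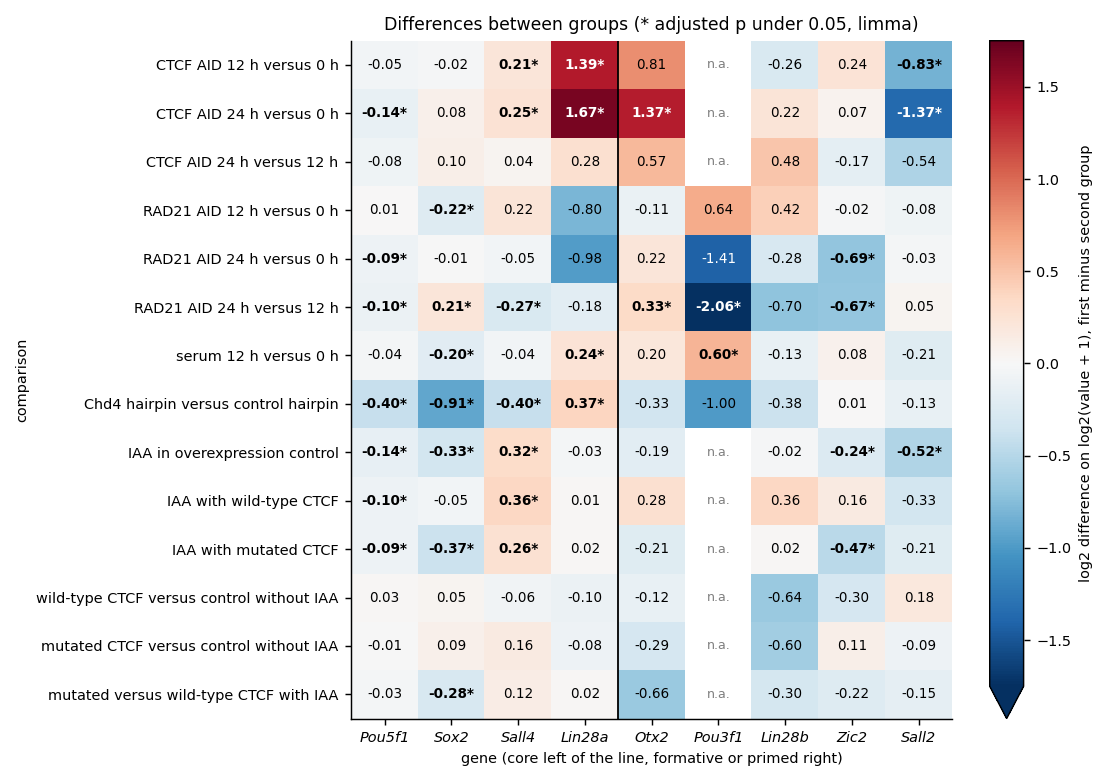
Log2 differences on log2(value + 1), first group minus second, for the 9 measured members (columns, core left of the line) in 14 comparisons (rows), coloured from blue (lower) to red (higher), with * for a limma adjusted p under 0.05 and n.a. where the gene was not analysed. The strongest red cells are Lin28a and Otx2 after CTCF degradation, and 6 starred cells stand in the row of 24 h against 12 h of RAD21 degradation. The star of Pou3f1 in that row is a description, since the gene passed the filter only through its earlier libraries.

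The genes whose pattern was most like those of Pou5f1 and Sox2 were sought by Pearson r of log2(value + 1), centred on each table's mean, over 32 libraries and 8969 genes that averaged 100 or more in every table. For Pou5f1 they were Chaf1b (r = 0.952) and Rpl28 (0.95), and for Sox2 Septin10 (0.942) and Eif4a2 (0.921). The libraries share tables and treatments, and the Chd4 hairpin separates both genes, so r was also taken, as a choice made after seeing the data, over the 28 libraries without that table: 0.876, 0.871, 0.849 and 0.763. Otx2 did not reach the minimum in all tables, and Fgf5 was not analysed. Among the members themselves Pou5f1 and Sox2 were the most alike (r = 0.809) and Lin28a and Sall2 the most opposed (-0.653). These values describe the libraries and carry no test.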

How the data were processed

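RNA-seq was measured in 32 libraries of 16 groups (2 each). Per the labels, mRNA was purified, fragmented and made into libraries with a commercial kit. The deposited values are a signal, normalised counts per gene, in 5 tables deposited by the authors and treated here as normalised separately. The submitters' processing notes name Trim Galore, Bowtie2, STAR, RSEM, DESeq2 and mm10, with no role, order or version. Low values did not fall on whole-read steps (coherence 0.364 to 0.557), so read depth is not known. Library totals of the normalised counts, 15364584 to 19642332, do not measure it. No counting interval can be given, and no count test was run.

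Columns were mapped to samples by name, and 0 were unmapped. The table of CTCF degradation ends in an incomplete line, and genes past that line were not analysed in it. Values were taken as log2(value + 1). Every table was modelled once, all its groups together, for genes whose mean was 10 or more, using limma 3.58.1 (R 4.3.3) with trended empirical Bayes. Calls needed an adjusted p (Benjamini-Hochberg, all genes of the table) under 0.05. A difference on this scale understates the change of low genes. The fitting code was tested on simulated data. Alternatives were pseudocounts of 0.5 and 5, no filter or a mean of 100, trimmed-mean and quantile scaling, only the groups compared, groups from the treatment label, a replicate block and each library left out.

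Members and gene lists were chosen with earlier results of these data known. Named genes are the 10 members and, from each list and comparison, at most 4 called genes, taken by size of log2 difference among those whose higher group averaged 100 or more. Genes most like Pou5f1 and Sox2 are the top 2 by r, and none could be given for Otx2 and Fgf5. Positions are from GENCODE M21 on GRCm38, where at least 99.91% of identifiers were found. Promoters are from RefSeq.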

Additional observations from a re-analysis of the deposited data

Results flagged for a closer look

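Between 12 and 24 h of RAD21 degradation 6 members differed by limma's test of the 2 times: Pou5f1 (-0.10 on the log2 scale), Sox2 (0.21), Sall4 (-0.27), Otx2 (0.33), Pou3f1 (-2.06) and Zic2 (-0.67). These were picked out because the effect of degradation differed between times by a test of the difference. Pou3f1 passed the filter only through its earlier libraries, so its value is a description. Of the 6, the Sox2 difference kept its call with every library left out.

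For Sox2 the IAA response differed between wild-type CTCF and control cells by 0.27, by the interaction term. Both libraries titled as wild-type CTCF with IAA carry a treatment label that conflicts with the title.

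For Sall4, Otx2 and Zic2 the values with 12 h of IAA lay on opposite sides of the untreated ones in different tables, with both treated libraries on 1 side in each. With 2 libraries a group such separation can arise without a call, and its share over all genes was not computed. The differences between tables were not tested, and most of these responses were not called by limma: Sall4 was called in the time course and the overexpression control, Zic2 in the overexpression control and Otx2 in none. Sall4 differed by 0.21 in the CTCF time course, by -0.045 in serum and by 0.32 in the overexpression control. Otx2 differed by 0.81, 0.20 and -0.19 in the same order, and Zic2 by 0.24, 0.081 and -0.24.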

How the results depend on the processing

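Each member's difference was recomputed with the other settings. Of 1632 such values, 1538 kept their side of the threshold, 85 lost a call, 9 gained one and 0 reversed. Of 37 member calls, 18 held with every library left out and 24 under every other alternative. Among named list genes 2195 of 2516 values kept their side of the threshold and 321 lost a call. The pseudocounts, both filters and trimmed-mean scaling moved no count of called members by over 1.5 times.

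Quantile normalisation lowered the members called from 5 to 3 for IAA in control cells, from 2 to 1 at 24 h of RAD21 degradation and from 1 to 0 for the interaction with wild-type CTCF. With only the compared groups in the fit, the last 2 counts were 1 and 0. Groups taken from the treatment label could be fitted for IAA in control cells, where 5 calls became 0, and for wild-type CTCF against control, since the other overexpression contrasts then lose a group. That fit pools libraries with and without IAA by title.

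With 1 library left out, the lone library of its group is assumed to vary like the other groups. The members called were then 1 (from 3) at 12 h of CTCF degradation, 3 to 4 (from 5) at 24 h, 0 to 1 (from 2) at 24 h of RAD21 degradation, 1 to 2 (from 6) between 12 and 24 h, and 1 to 3 (from 3) in serum. They were 3 (from 5) for IAA in control cells, 1 (from 2) with wild-type CTCF and 0 to 1 (from 1) for the interaction.

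The replicate numbers are shared between groups, but same-numbered libraries did not deviate together (r from -0.16 to 0.152 between groups), so they do not pair the samples. With a replicate block the members called went from 6 to 3 between 12 and 24 h of RAD21 degradation (without Sall4, Otx2 and Pou3f1), from 5 to 3 for IAA in control cells (without Zic2 and Sall2) and from 0 to 1 (Sall4) for mutated CTCF against control. Differences too small for 2 libraries a group to show were not detectable here.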

Other observations

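Other pluripotency genes that the text has not described changed beside the members. Dppa2, which with Dppa4 primes bivalent promoters, fell from 1368 and 1323 to 454 and 445 normalised counts at 12 h of CTCF degradation (log2 difference -1.58, SE 0.08, limma adjusted p 9.82e-05) and from 1089 and 1031 to 570 and 578 at 24 h of RAD21 degradation (-0.88, SE 0.08, adjusted p 0.00107). In serum it rose from 1955 and 1871 to 2612 and 2547 with IAA (0.43, SE 0.04, limma adjusted p 0.000694), and with the Chd4 hairpin from 243 and 246 to 953 and 899.5 (1.92, SE 0.08, adjusted p 6.44e-06).

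Trh, a formative and primed list gene that rose by 2.58 on the log2 scale at 12 h of CTCF degradation, was 763 and 768 in the overexpression control, 1409 and 1325 with mutated CTCF without IAA (0.84, SE 0.08, limma adjusted p 0.000259) and 563 and 547 in the libraries titled as mutated CTCF with IAA (-1.30 against mutated CTCF without IAA, adjusted p 4.83e-06). Both comparisons rest on the libraries titled as mutated CTCF without IAA, whose labels conflict.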
